A study of Mus musculus with 4 samples.

Results

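The expression of 10 Notch pathway genes was followed in sorted basal cells of mouse tail epidermis: the receptor genes Notch1, Notch2 and Notch3, the ligand genes Jag1, Jag2 and Dll1, the glycosyltransferase gene Lfng, the transcription factor gene Rbpj, and the target genes Hes1 and Hey1. Members were taken as every probe set whose platform symbol is one of these names. This gave 19 probe sets of 45101 on the array and all 10 genes, of 18193 named genes on it. Of the 19, 18 were bright enough to be tested, and the other is a second Lfng probe set.

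Cells came from CD-1 mice that carried a RosaYFP reporter, switched on by a tamoxifen-inducible Cre, in 2 lines. In InvCREER the Cre is driven by the promoter of involucrin, a protein of the cornified envelope. In K14CREER it is driven by the promoter of keratin 14, a basal keratin. The InvCREER mice had 10 ug of tamoxifen and the K14CREER mice 1 ug, so the Cre line and the dose of its inducer cannot be told apart. Titles give 3.5 days after induction and the treatment protocol gives 4 days. Living YFP-positive cells with high alpha6 integrin and no CD34 on their surface were sorted from both lines. There were 2 Affymetrix expression arrays per line, called InvCREER 1 and 2 and K14CREER 1 and 2. Nothing in the labels ties the arrays to separate animals. A p-value here sets the difference between the lines against a spread estimated from these arrays over all tested probe sets. That spread may be only technical.

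Notch receptors are transmembrane proteins that are cut when a Jagged or Delta-like ligand on a neighbouring cell binds them. The freed intracellular part enters the nucleus, joins the DNA-binding protein RBPJ and switches on genes such as Hes1 and Hey1. In epidermis the pathway is known for driving basal keratinocytes out of the basal state and into spinous differentiation.

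To show the DNA in front of the members with the largest differences, the 250 bases upstream of a RefSeq transcription start were read (RefSeq, GRCm38.p6). Of the 10 members 8 were matched, with 10 start sites among them. Capitals mark the core letters bound by RBPJ (TGGGAA, on either strand) and the N box (CACNAG, on either strand), a motif bound by Hes proteins. Notch3 is shown as the receptor gene that rose, Dll1 as the gene with the largest lower value, and Lfng as a member with RBPJ letters. The windows are chr17:32166891-32167140 on the minus strand for Notch3, chr17:15376933-15377182 on the minus strand for Dll1 and chr5:140607091-140607340 on the plus strand for Lfng.
Notch3: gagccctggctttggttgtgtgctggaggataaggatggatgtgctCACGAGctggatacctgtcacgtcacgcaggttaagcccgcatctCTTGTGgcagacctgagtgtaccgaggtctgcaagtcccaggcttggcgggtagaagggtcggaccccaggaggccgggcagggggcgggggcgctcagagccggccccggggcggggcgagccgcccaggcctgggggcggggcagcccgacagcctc
Dll1: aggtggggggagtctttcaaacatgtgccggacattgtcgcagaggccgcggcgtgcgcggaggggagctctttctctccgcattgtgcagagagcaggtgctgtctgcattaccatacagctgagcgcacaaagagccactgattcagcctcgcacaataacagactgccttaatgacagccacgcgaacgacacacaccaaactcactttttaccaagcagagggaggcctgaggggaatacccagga
Lfng: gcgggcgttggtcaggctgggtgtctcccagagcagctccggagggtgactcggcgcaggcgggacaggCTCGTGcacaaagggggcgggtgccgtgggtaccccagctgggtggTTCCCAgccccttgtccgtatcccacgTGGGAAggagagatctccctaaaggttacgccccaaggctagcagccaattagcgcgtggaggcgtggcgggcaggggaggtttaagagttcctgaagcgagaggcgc

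The Lfng window holds 2 RBPJ cores, at bases 116 and 143 counted from 1 at its 5′ end, and 1 N box at base 70. The Notch3 window holds 2 N boxes, at bases 47 and 92, and no RBPJ core. The Dll1 window holds neither set of letters, and neither does the Jag2 window, which lies inside the RefSeq gene and may not belong to the transcript measured. An RBPJ core was found in 3 of the 10 member windows, against 21.6% of all 32851 promoter windows of this length. An N box was found in 4 of the 10, against 36.7% of all windows. The 3 windows with RBPJ letters belong to Lfng and to both starts of Rbpj, whose windows overlap and share 1 match. These are matches of letters and say nothing of binding in these cells.

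All values are log2 RMA values, summarised per probe set by the authors. A probe set was tested if its mean over the 4 arrays reached 5.42, the median of all probe sets, which kept 22519. RMA brings every array to a common distribution. InvCREER 1 and K14CREER 1 each stood apart from the other arrays in some marker genes, and InvCREER 1 also in a measure of RNA quality. Xist, expressed in female cells, was 12.56 on InvCREER 1 and 8.26 on InvCREER 2, against 7.25 and 5.44 on the K14CREER arrays (log2). The gap by which a 3′ probe set exceeds the 5′ one of its gene widens as RNA breaks down. For beta-actin it was 1.24 and 0.77 (log2) in InvCREER and 0.94 and 0.68 in K14CREER. For Gapdh it was 0.74 and 0.05 in InvCREER and 0.33 and 0.07 in K14CREER. Both gaps were larger on array 1 of each line and largest on InvCREER 1. Krt14 was 13.82 and 13.85 in InvCREER and 14.14 and 14.17 in K14CREER, and Itga6, which encodes the alpha6 integrin, was 11.62 and 11.77 against 12.38 and 12.41. The Merkel cell keratin gene Krt18 read 4.27 and 4.40 in InvCREER and 7.69 and 4.20 in K14CREER. Cd34, whose protein was absent by the sort, read 3.88 and 3.66 in InvCREER and 6.07 and 3.59 in K14CREER. Both genes were thus high on K14CREER 1 alone. The 7 Merkel markers averaged 4.50 and 4.55 in InvCREER and 5.47 and 4.48 in K14CREER, with Krt20, Atoh1, Sox2 and Isl1 under 5.42 on every array. The 6 T cell markers with a probe set averaged 5.24 and 5.11 in InvCREER and 5.52 and 5.24 in K14CREER, with Cd3g, Ptprc and Il2rb under 5.42 on every array and Thy1 at 6.64 and 6.71 in InvCREER and 9.18 and 7.80 in K14CREER. Involucrin's own gene Ivl read 4.78 and 5.06 in InvCREER and 4.58 and 6.23 in K14CREER, and was not tested, like Cd34, for its low mean. Levels of different probe sets are not comparable, and only differences between lines are read. In such bulk samples fewer cells of a type and less RNA per cell cannot be told apart.

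Notch3 rose and Jag2 fell in InvCREER cells against K14CREER cells. Dll1, a Delta-like ligand, lay lower by 1.79 without passing the test. Notch1, Rbpj and Hey1 lay within 0.30 of zero on every tested probe set. By limma, 3 of the 18 tested member probe sets were called at an adjusted p under 0.05, against 0.959% of all tested probe sets. Of these 3, 2 were higher (0.684% of all tested probe sets) and 1 was lower (0.275%). Both higher ones belong to Notch3, and the dimmer of them passed the filter only through InvCREER, so these counts are a description. At an unadjusted p under 0.05 there were 7 of 18, against 13.9%. The values of the lines did not overlap for 13 of 18, against 42.0% of all tested probe sets. Of these 13, 8 were higher in InvCREER (20.0% of all) and 5 lower (22.1%). The median difference of the 18 was 0.05 and their median absolute difference 0.39, against -0.01 and 0.21 over all tested probe sets. The count of called members depended on single arrays, and so did the count over all tested probe sets, which was 216 with all 4 arrays. No member was called without the filter on dim probe sets, where 230 probe sets were called in all. None was called without the variance trend either, where 122 were called in all.

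**Figure D1:**
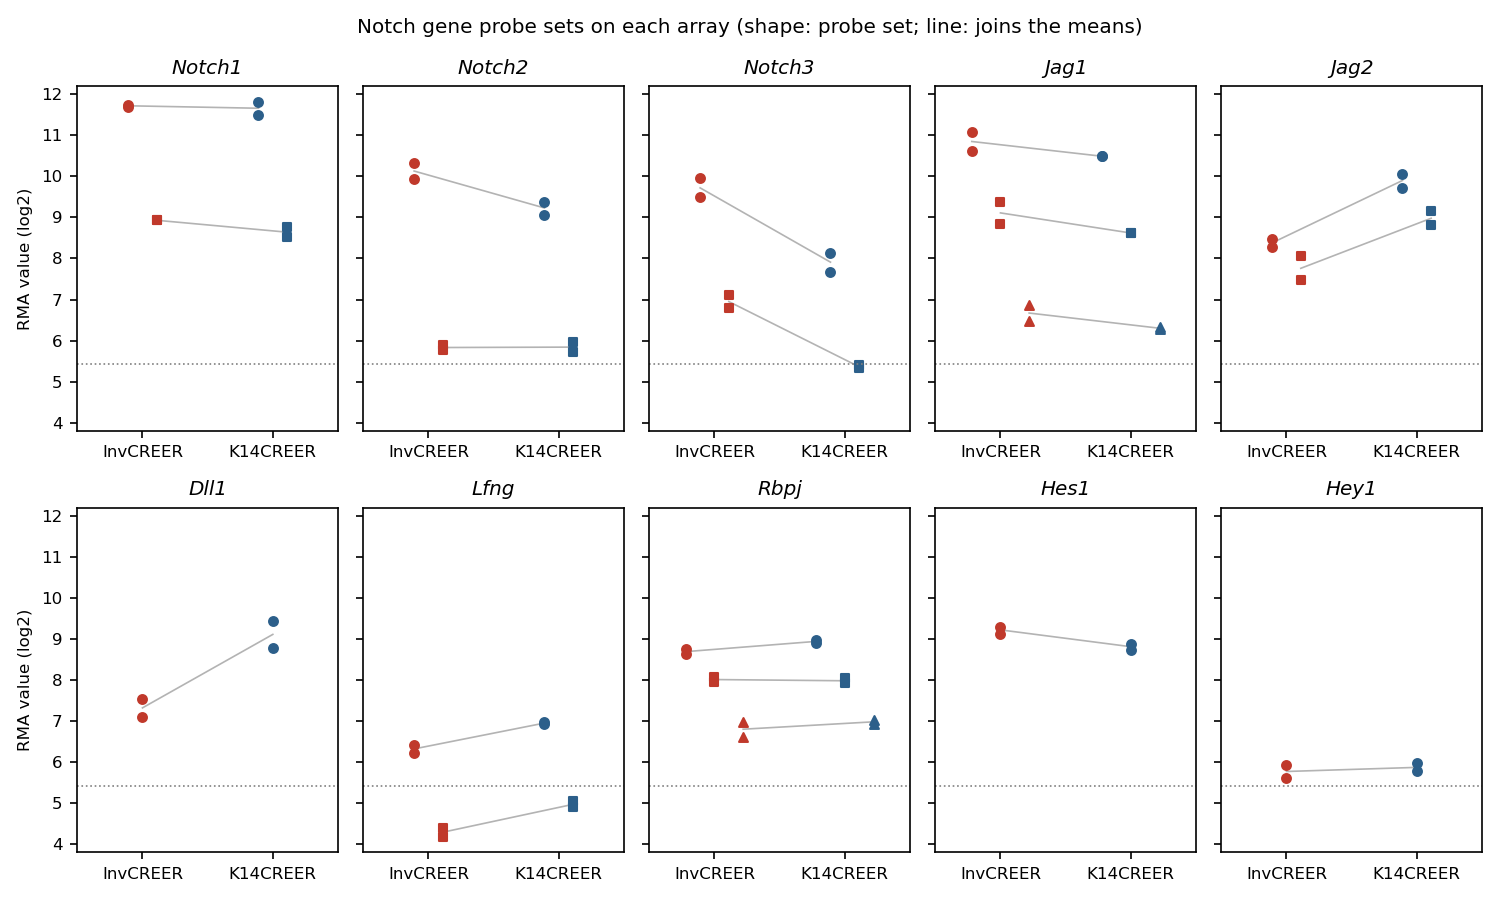
Log2 RMA values of the 19 Notch probe sets on each of the 4 arrays, with InvCREER in red and K14CREER in blue; shapes mark the probe sets of a gene, lines join the means of the lines and the dotted line is the filter value of 5.42. Both Notch3 probe sets sit higher on the InvCREER arrays, while Jag2 and Dll1 sit lower.

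Over the 18 tested member probe sets, arrays of the same line correlated most, with r = 0.985 between the InvCREER arrays and r = 0.988 between the K14CREER arrays. Arrays of different lines correlated at 0.841 to 0.854. Over all tested probe sets the values were 0.967 and 0.969 within lines and 0.928 to 0.958 between lines. By the median absolute difference the order was another one. Over the members it was 0.317 between the InvCREER arrays and 0.169 between the K14CREER arrays, and 0.226 between InvCREER 2 and K14CREER 2. Over all tested probe sets InvCREER 2 and K14CREER 2 were the closest pair, at 0.231, against 0.255 and 0.252 within lines. These values run across probe sets, which share their arrays and their normalisation, and are given as a description.

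Notch3 encodes a receptor with a weaker activation domain than Notch1. Its brighter probe set, 1421965_s_at, read 9.96 and 9.49 on the InvCREER arrays and 8.14 and 7.68 on the K14CREER arrays. The gap between arrays of one line was 0.48 in InvCREER and 0.45 in K14CREER. The difference was 1.82 (SE 0.27, adjusted p = 0.0463 by limma), or 3.52-fold, with a 95% interval of 1.16 to 2.47.

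The other Notch3 probe set, 1421964_at, read 7.11 and 6.79 in InvCREER and 5.32 and 5.40 in K14CREER. Each InvCREER array was above each K14CREER array on both probe sets. Its difference was 1.59 (SE 0.23, adjusted p = 0.0453 by limma), and background limits its size, since both K14CREER values lie under 5.42. It reached the filter only through the InvCREER arrays, so its call is no support for that of the brighter probe set. Without InvCREER 1 the differences were 1.58 and 1.43 and both calls held (adjusted p = 0.0336 and 0.0362 by limma). Without K14CREER 1 they were 2.04 and 1.55 (adjusted p = 0.0841 and 0.149 by limma), and without K14CREER 2 they were 1.59 and 1.63 (adjusted p = 0.12 and 0.111 by limma). Neither call held when dim probe sets were tested too (adjusted p = 0.0528 and 0.0536 by limma) or without the variance trend (adjusted p = 0.0722 and 0.057 by limma). Notch3 is also expressed in pericytes and vascular smooth muscle. The 10 mural cell markers had a mean of 5.43 and 5.52 in InvCREER and 5.71 and 5.67 in K14CREER. Of them 0 of 4 tested were called, 3 had a higher mean in InvCREER, and Rgs5, Myh11 and Kcnj8 were under 5.42 on every array.

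Notch2 gave different readings on its 2 probe sets. On 1455556_at it read 10.33 and 9.93 in InvCREER and 9.38 and 9.07 in K14CREER, with no overlap. The difference was 0.91 (SE 0.23, adjusted p = 0.135 by limma). With the array number as a block, a term that the labels do not give as a pairing, the adjusted p was 0.0224. The dimmer probe set, 1451889_at, lay between 5.72 and 5.96 on all 4 arrays and overlapped, at a difference of -0.01 (95% interval -0.56 to 0.53). With the mean of both probe sets the difference of Notch2 was 0.45.

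Notch1, the receptor best known for keratinocyte differentiation, was bright on all arrays. On 1418634_at it read 11.69 and 11.75 in InvCREER and 11.50 and 11.82 in K14CREER. The lines overlapped, at a difference of 0.06 (adjusted p = 0.937 by limma). The 95% interval of -0.30 to 0.42 leaves out a change of the size seen for Notch3. On 1418633_at Notch1 read 8.93 and 8.94 in InvCREER and 8.52 and 8.76 in K14CREER, at a difference of 0.30 (95% interval -0.21 to 0.81, adjusted p = 0.652 by limma). Of the 6 receptor probe sets the 2 of Notch3 alone were called, against 0.959% of all tested probe sets. Both belong to 1 gene, and the dimmer passed the filter only through InvCREER, so this count is a description.

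**Figure D2:**
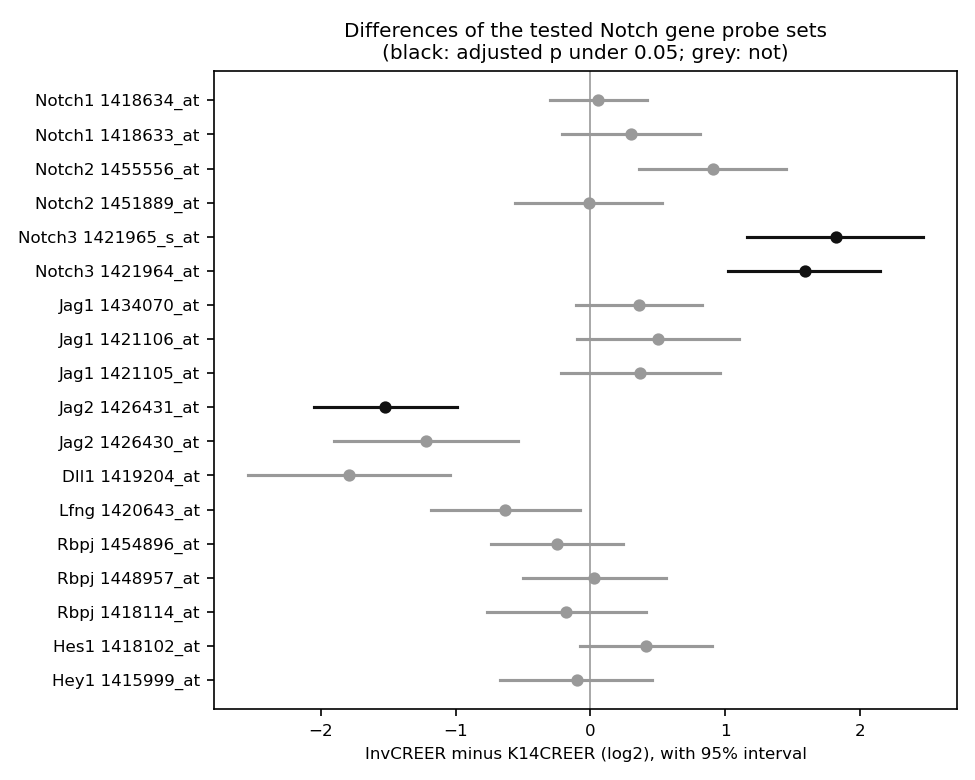
Differences of the 18 tested Notch probe sets, InvCREER minus K14CREER in log2 units, with 95% intervals from limma; black marks an adjusted p under 0.05. Both Notch3 probe sets lie right of zero at 1.82 and 1.59, and Jag2 1426431_at lies left at -1.52.

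Among the ligand genes Jag2 fell. Jag2 encodes a Jagged ligand made in basal keratinocytes. On 1426431_at it read 8.47 and 8.28 in InvCREER and 9.72 and 10.07 in K14CREER. Both InvCREER arrays were below both K14CREER arrays. The difference was -1.52 (SE 0.22, adjusted p = 0.0431 by limma), a 2.87-fold lower value, with a 95% interval of -2.05 to -0.99.

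The second Jag2 probe set, 1426430_at, read 8.05 and 7.47 in InvCREER and 9.15 and 8.81 in K14CREER. It did not overlap either, at a difference of -1.22 (SE 0.28, adjusted p = 0.115 by limma), and it passed the test without InvCREER 1 (-1.51, adjusted p = 0.0368 by limma). The call of 1426431_at held without InvCREER 1 (-1.61, adjusted p = 0.0137 by limma) and was lost without K14CREER 1 (-1.69, adjusted p = 0.1 by limma) and without K14CREER 2 (-1.35, adjusted p = 0.146 by limma). It was also lost when dim probe sets were tested too (adjusted p = 0.0512 by limma) and without the variance trend (adjusted p = 0.0693 by limma).

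Dll1 had the lowest difference of all members. Its 1 probe set read 7.54 and 7.09 in InvCREER and 9.44 and 8.77 in K14CREER. The lines did not overlap, and the nearest arrays were K14CREER 2 and InvCREER 1. The difference was -1.79 (SE 0.31, adjusted p = 0.061 by limma), with a 95% interval of -2.54 to -1.04. The test was passed without InvCREER 1 (-2.01, adjusted p = 0.0102 by limma) and without InvCREER 2 (-1.56, adjusted p = 0.0291 by limma). It was missed without K14CREER 1 (-1.45, adjusted p = 0.199 by limma) and without K14CREER 2 (-2.13, adjusted p = 0.071 by limma). With 1 probe set per gene the adjusted p was 0.0216, and with the stricter filter on dim probe sets 0.0301. Over its 15 alternatives at the 0.05 threshold the adjusted p ran from 0.00741 to 0.199, and 6 of them called Dll1.

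Jag1, the other Jagged ligand gene, had higher means in InvCREER on all 3 probe sets and passed the test on none. On the brightest, 1434070_at, it read 11.08 and 10.63 in InvCREER and 10.49 and 10.50 in K14CREER. The InvCREER arrays lay above, InvCREER 1 farthest. The differences of the 3 probe sets were 0.36, 0.50 and 0.37, with adjusted p of 0.468 to 0.622 by limma, and 0.13, 0.23 and 0.15 between the arrays numbered 2. The sebaceous gland markers were also highest on InvCREER 1. Their mean was 11.09 and 9.50 on InvCREER 1 and 2 and 8.28 and 7.81 on the K14CREER arrays. All 9 had a higher mean in InvCREER and 1 was called higher, against 0.684% of all tested probe sets. None of the 9 was under 5.42 on every array, and their part in the Jag1 values was not tested.

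**Figure D3:**
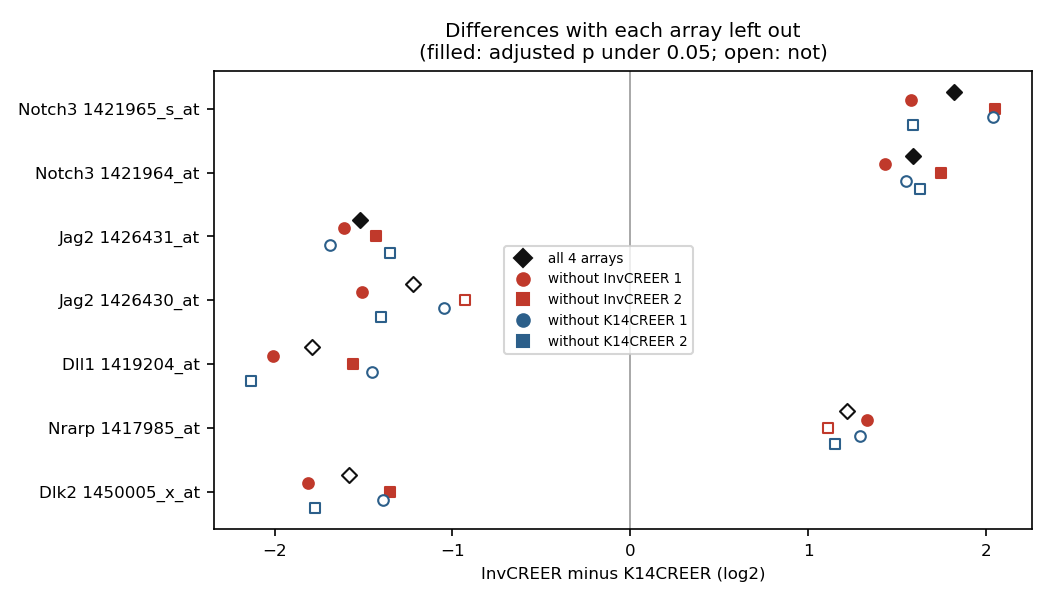
Differences of 7 probe sets, InvCREER minus K14CREER in log2 units, with all 4 arrays (diamonds) and with each array left out; filled symbols have an adjusted p under 0.05. Every difference keeps its side of zero, while the Notch3 and Jag2 1426431_at symbols are open without either K14CREER array.

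Lfng encodes a fringe enzyme that adds sugar to Notch receptors and alters which ligands they answer. On 1420643_at it read 6.23 and 6.41 in InvCREER and 6.92 and 6.98 in K14CREER. Both InvCREER arrays lay lower, at a difference of -0.63 (SE 0.23, adjusted p = 0.288 by limma). The untested probe set 1449943_at read 4.39 and 4.18 in InvCREER and 4.90 and 5.04 in K14CREER, below the filter value but in the same order.

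Rbpj, the DNA-binding partner of every Notch receptor, did not pass the test on any of 3 probe sets. Its brightest, 1454896_at, read 8.63 and 8.76 in InvCREER and 8.90 and 8.98 in K14CREER. The differences of the 3 were -0.25, 0.03 and -0.18. The widest of their 95% intervals ran from -0.77 to 0.41 and the lines overlapped on 2 of the 3.

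Of the 2 target genes neither passed the test. Hes1, a repressor switched on by Notch in many tissues, read 9.13 and 9.30 in InvCREER and 8.88 and 8.73 in K14CREER. Both InvCREER arrays were higher, at a difference of 0.41 (SE 0.20, 95% interval -0.08 to 0.90, adjusted p = 0.467 by limma). Hey1, a related repressor, lay between 5.61 and 5.97 on all arrays, close to the filter value, and the lines overlapped, at a difference of -0.10 (95% interval -0.67 to 0.46).

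The genes with the values most like Notch3 and Jag2 over the 4 arrays were read by the root mean square difference after centring each probe set on its mean. For Notch3 1421965_s_at they were Agpat3, a phospholipid acyltransferase gene, at a distance of 0.087, Sptlc3, a subunit gene of the enzyme that starts sphingolipid synthesis, at 0.119, and Nbeal2 at 0.122. For Jag2 1426431_at they were Jdp2, a repressor of AP-1, at 0.029, Hip1 at 0.069 and Ctnnal1 at 0.074. Hip1 read 5.27 and 5.04 in InvCREER and 6.55 and 6.72 in K14CREER, so it passed the filter only through K14CREER. Jdp2 lay near the filter value in InvCREER, at 5.52 and 5.39, against 6.78 and 7.19 in K14CREER. With 4 arrays such likeness is a description.

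The rest of the pathway was read from a list of 70 further genes in 8 roles, of which 65 had a named probe set in the files used here and 55 were tested, each by its brightest probe set. Of the 55, 3 rose and 0 fell, against 1.33% of all tested genes called. The median difference was -0.02, against -0.01 over all tested genes, and 31 of 55 did not overlap, against 45.3%. The 3 called genes all belong to the 7 keratinocyte genes linked to Notch in earlier work on skin. Of these 7, 5 were tested, 3 with a higher and 2 with a lower mean in InvCREER. The lower ones were Trp63 at -0.49 and Wnt4 at -0.47 (adjusted p = 0.126 and 0.2 by limma). The rise of the 3 called genes was known from earlier work on these data, so it is no independent evidence of direction. Cdkn1a, the gene of the p21 inhibitor of cell division, read 11.58 and 11.50 in InvCREER and 9.34 and 9.29 in K14CREER. The difference was 2.22 (SE 0.16, adjusted p = 0.00663 by limma). Krt1 read 13.48 and 13.74 in InvCREER and 12.50 and 12.13 in K14CREER, and Krt10 read 14.07 and 14.11 in InvCREER and 13.31 and 13.44 in K14CREER. On all 3 genes both InvCREER arrays lay above both K14CREER arrays. The keratin genes of spinous cells Krt1 and Krt10 rose by 1.29 and 0.71 (adjusted p = 0.0248 and 0.0211 by limma). The call of Krt10 was lost without K14CREER 1 (0.65, adjusted p = 0.0645 by limma), and those of both keratin genes were lost without the variance trend (adjusted p = 0.0932 and 0.189 by limma).

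Outside that role limma called 0 of 50 genes, with 7 at an unadjusted p under 0.05, against 16.1% of all tested genes, so their share was not above the background. Nrarp, a Notch target that damps the signal by acting on the intracellular receptor, was closest. It read 10.14 and 10.36 in InvCREER and 9.10 and 8.97 in K14CREER on 1417985_at. Both InvCREER arrays were higher, at a difference of 1.22 (SE 0.19, adjusted p = 0.0528 by limma), with a 95% interval of 0.76 to 1.68. Its other probe set, 1417986_at, differed by 1.01 (adjusted p = 0.13 by limma). Nrarp passed the test without InvCREER 1 (1.33, adjusted p = 0.0325 by limma), missed it with any one of the other 3 arrays left out, and passed it with 1 probe set per gene (adjusted p = 0.0191). Over its 15 alternatives the adjusted p ran from 0.0152 to 0.158.

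Dlk2, a Delta-like protein that lacks the domain by which classical ligands bind Notch, read 8.11 and 7.65 in InvCREER and 9.64 and 9.26 in K14CREER. It lay lower by the same order as Jag2 and Dll1, at a difference of -1.58 (SE 0.26, adjusted p = 0.0565 by limma). Its other probe set was at -1.30 (adjusted p = 0.081 by limma). Dlk2 passed the test without InvCREER 1 (-1.81, adjusted p = 0.0102 by limma) and without InvCREER 2 (-1.35, adjusted p = 0.0336 by limma). It missed the test without K14CREER 1 (-1.39, adjusted p = 0.205 by limma) and without K14CREER 2 (-1.77, adjusted p = 0.103 by limma). Notch4, Dll3, Dll4, Dlk1 and Dner had means under the filter value. Dll4, the ligand of sprouting vessels, read 4.63 and 4.87 in InvCREER and 5.03 and 4.80 in K14CREER.

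Among the other targets Ccnd1, the cyclin D1 gene, was at -0.64 (adjusted p = 0.086 by limma) and lay lower on all 3 of its tested probe sets, while Gata3 was at 0.54 and overlapped. Hes5, Hey2 and Heyl had means under the filter value. Hes5 read 5.29 and 5.13 in InvCREER and 5.04 and 5.51 in K14CREER, and Heyl 4.98 and 5.22 in InvCREER and 5.09 and 5.24 in K14CREER.

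Of the 5 sugar-adding enzymes 0 were called by limma and 1 had an unadjusted p under 0.05, against 16.1% of all tested genes. This enzyme was Eogt, which adds N-acetylglucosamine to Notch, at -0.96 (adjusted p = 0.0925 by limma), lower on all 3 of its tested probe sets. Mfng was at 0.28 and Poglut1 at -0.16. Of the 12 ubiquitination and endocytosis genes 0 were called, with Neurl1b, a ubiquitin ligase acting on ligands, at -0.80 (adjusted p = 0.168 by limma), Dtx2 at 0.38 and Dtx3l at -0.31. At an unadjusted p under 0.05 there was 1 of these 12, against 16.1% of all tested genes. Of the 8 cleavage genes 0 were called and 0 had an unadjusted p under 0.05, with the convertase gene Furin at -0.43, the presenilin gene Psen2 at -0.41 and Aph1b at 0.17.

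The nuclear partners showed small differences. Of 8 coactivator and turnover genes 0 were called and 2 had an unadjusted p under 0.05, against 16.1% of all tested genes. The 2 were Fbxw7, which marks the intracellular receptor for degradation, at -0.78 (adjusted p = 0.168 by limma), and the acetyltransferase gene Kat2b at 0.63 (adjusted p = 0.259 by limma). Ccnc was at 0.35. Of 10 corepressor genes 0 were called by limma and 0 had an unadjusted p under 0.05, with Ctbp2 at -0.49, Tle3 at 0.34 and Tle4 at 0.29.

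**Figure D4:**
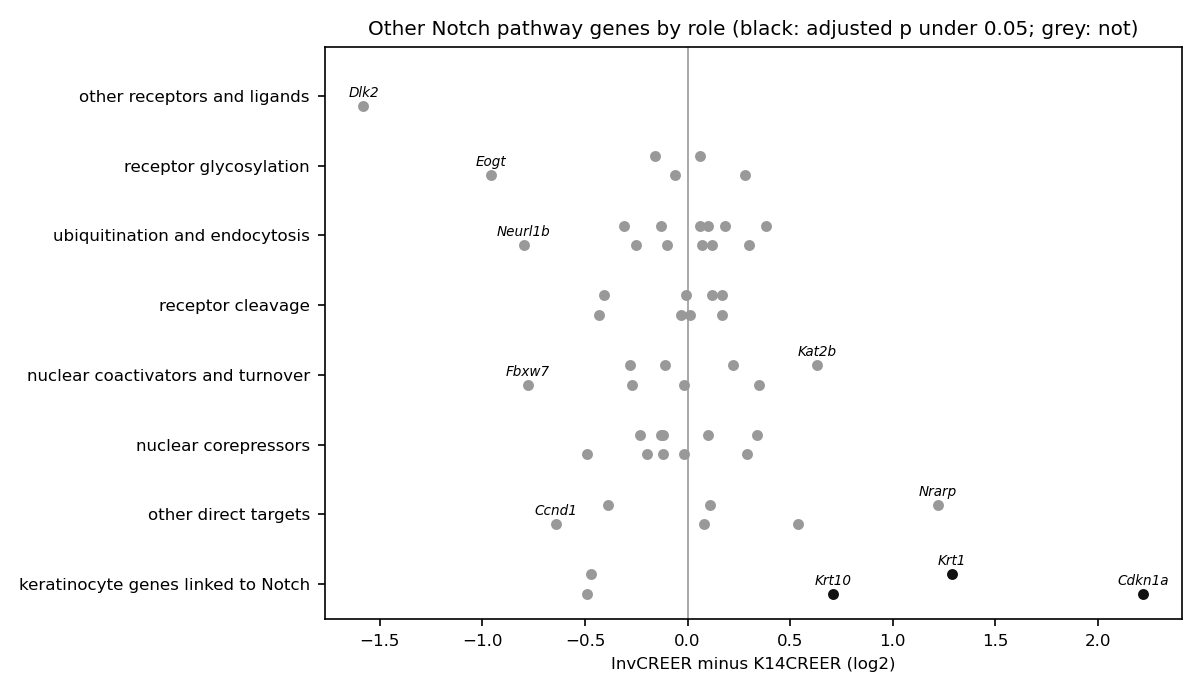
Differences of 55 further Notch pathway genes by role, InvCREER minus K14CREER in log2 units, each by its brightest tested probe set; black marks an adjusted p under 0.05 and genes at least 0.6 from zero are named. The called genes are Cdkn1a, Krt1 and Krt10, and the grey points of Nrarp and Dlk2 lie at 1.22 and -1.58.

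Basal and suprabasal keratinocyte markers differed between the lines beside these values. The 9 basal markers had a mean of 11.40 and 11.28 in InvCREER and 12.34 and 12.23 in K14CREER. Of the 9, 0 were higher and 2 were called lower, against 0.275% of all tested probe sets. The 8 suprabasal markers had a mean of 10.80 and 11.03 in InvCREER and 9.20 and 9.42 in K14CREER. Of the 7 tested, 7 were called higher, against 0.684% of all tested probe sets. The untested one, Ivl, had a lower mean in InvCREER. Krt1, Krt10, Ivl and Trp63 are also among the keratinocyte genes linked to Notch above. The basal and suprabasal lists separate the lines as Notch3, Jag2 and Dll1 do, and none of their markers was under 5.42 on every array. The means of the sebaceous, Langerhans and myeloid, dermal fibroblast and mural lists also separate the lines. Within each line the suprabasal mean was higher on array 2. Notch3 1421965_s_at was higher on array 1 of each line, at 9.96 and 8.14 against 9.49 and 7.68. So were the basal, hair follicle, sebaceous, Langerhans and myeloid, T cell, and dermal fibroblast means. The Langerhans and myeloid markers averaged 7.22 on InvCREER 1 and 6.08 on InvCREER 2, against 5.73 and 5.44 on the K14CREER arrays. Of the 10, 9 had a higher mean in InvCREER and 0 of 7 tested were called by limma, while Lyz2, Ptprc and Itgax were under 5.42 on every array. The 9 dermal fibroblast markers had a mean of 6.51 and 6.38 in InvCREER and 7.50 and 6.86 in K14CREER. Col1a1, Lum and Pdgfra were under 5.42 on every array. Of the 9, 5 were tested and 1 was called lower, against 0.275% of all tested probe sets. This was Sparc, at 9.73 and 9.85 in InvCREER and 12.19 and 12.11 in K14CREER. Only Postn had a higher mean in InvCREER, at 12.01 and 12.01 against 11.67 and 11.78. Endothelial markers had a mean of 4.86 and 4.95 in InvCREER and 4.92 and 4.80 in K14CREER, with 6 of 10, Pecam1 and Cdh5 among them, under 5.42 on every array. The 9 hair follicle markers had a mean of 7.09 and 6.49 in InvCREER and 7.03 and 6.48 in K14CREER, and 5 had a higher mean in InvCREER. Of 5 tested, 1 was called lower, against 0.275% of all tested probe sets. This was Lgr6, at -1.79 (adjusted p = 0.0292 by limma). Lgr5 and Krt75 were under 5.42 on every array. The part of these cell types in the Notch values was not tested.

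**Figure D5:**
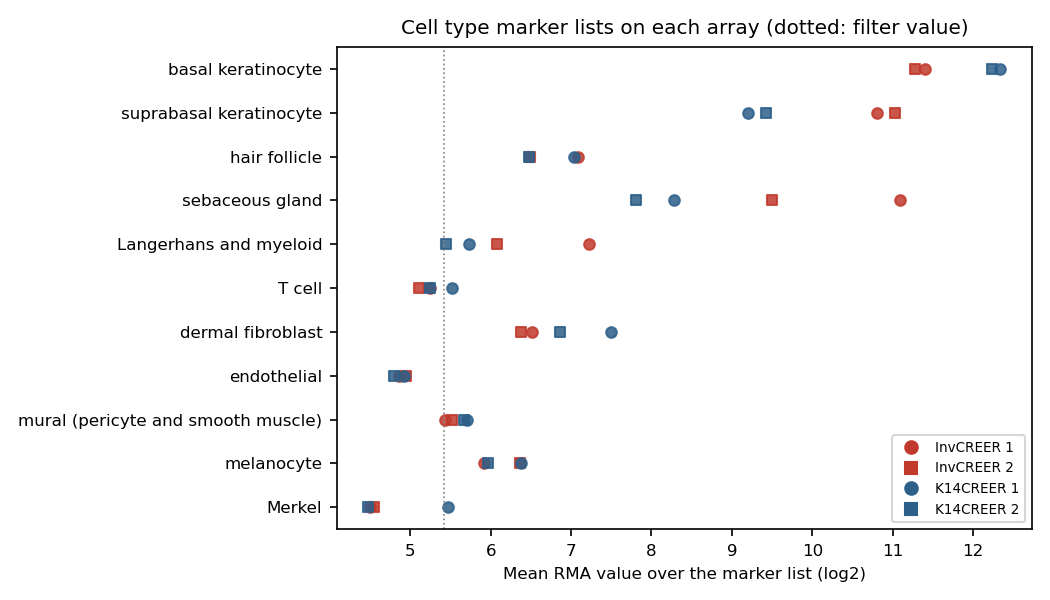
Mean log2 RMA value of each cell type marker list on the 4 arrays, with InvCREER in red and K14CREER in blue; the dotted line is the filter value of 5.42. Suprabasal and sebaceous lists sit higher on the InvCREER arrays, the basal list sits lower, and the endothelial list lies under the dotted line on every array.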

How the data were processed

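RNA of sorted cells was measured on 4 Affymetrix mouse expression arrays. Each array took 100 ng of total RNA, amplified and biotin-labelled by 3′ in vitro transcription per the labels' protocols. The authors summarised the probe sets with RMA (Affymetrix Expression Console 1.1 in the submitters' processing notes) and deposited them as log2 values. Array medians lay at 5.41 to 5.44. RMA hides changes in total RNA per cell and compresses differences near the top of the scale. Precision is limited by the small number of arrays.

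Of 45101 probe sets 64 controls were set aside, and 22519 with a mean of at least 5.42 were tested. Gene names came from the platform annotation, updated by Entrez number to the RefSeq names of GRCm38.p6. Of the non-control probe sets 34945 had 1 symbol, 932 several and 9160 none, and no gene was named from several. InvCREER was set against K14CREER by limma 3.58.1 (R 4.3.3) with lmFit and eBayes, a variance trend and no block, 2-sided. Adjusted p-values are Benjamini-Hochberg values over the 22519 probe sets, and a call is an adjusted p under 0.05. An exact permutation of 2 against 2 arrays cannot go below p = 0.333. The fit was tested on simulated data.

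Members and gene lists were chosen with earlier results of these data known. Named genes are all members, called genes of the wider list and up to 3 per role by size, the 3 nearest patterns per called member, and 5 check genes. The alternatives changed the filter, the variance model, the weights of arrays, the scaling, the block, the arrays used, the threshold, the unit of testing and the kinds of probe set. A line left with 1 array is taken to vary as the other line does. Figures used matplotlib 3.10.9.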

Additional observations from a re-analysis of the deposited data

How the results depend on the processing

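The directions of Notch3, Jag2, Dll1, Nrarp and Dlk2 held in every alternative run, while their calls did not. The 3 calls of Notch member probe sets became 0 without the filter on dim probe sets, 0 without the variance trend and 0 to 5 with each array left out. The 3 calls of wider Notch genes became 5 with the stricter filter, 1 without the variance trend, 7 with 1 probe set per gene, 6 with the mean of the probe sets of a gene, 7 at an adjusted p under 0.1 and 2 to 5 with each array left out. The 216 calls over all probe sets became 394 with the stricter filter, 122 without the variance trend, 551 with 1 probe set per gene, 450 with the mean of the probe sets of a gene, 692 at an adjusted p under 0.1 and 82 to 981 with each array left out. The causes were not tested. With the replicate block the calls were 6 for the Notch members, 8 for the wider genes and 1390 in all. Same-numbered arrays deviated together (r = 0.38 across probe sets), but the labels give no pairing and 2 pairs do not establish one. Signs turned only with an array left out and only where differences were small. The ranges were -0.10 to 0.22 for Notch1 1418634_at, -0.13 to 0.11 for Notch2 1451889_at, -0.03 to 0.09 for Rbpj 1448957_at, -0.26 to 0.05 for Hey1 and -0.16 to 0.51 for Aph1b. Dim signal limits Hey1, Notch2 1451889_at, Lfng and the K14CREER side of Notch3 1421964_at.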
